A study of Sus scrofa with 12 samples.

Results

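Oocytes of the class named SM that were matured with glial cell line-derived neurotrophic factor (GDNF) were compared with SM oocytes matured without it. Standard errors and p-values come from a fit of all 12 arrays of the series. The difference itself rests on 6 of them: 3 of pools labelled SM_GDNF and 3 of pools labelled SM_control, chosen by that label. No gene differed between them at an adjusted p under 0.05, as deposited or under any other reading of the ratios that was tried. What the 6 arrays do show are the values of single genes and a marked disagreement between the slides, all given below. A few genes had an unadjusted p under 0.05 in both possible dye readings. This choice takes genes whose values the reading hardly changes, so it cannot show that their difference stands.

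The pig oocytes came from prepubertal crossbred gilts and were matured in vitro for 44 h in TCM199 with LH, FSH, EGF and follicular fluid (10%), with GDNF in the treated groups and no added compound in the controls. Hyaluronidase and pipetting then removed the cumulus, and their RNA was amplified through rounds of in vitro transcription primed at the poly(A) tail. Each array set a pool of one group against a reference made of oocytes from all the groups, so the reference itself holds oocytes matured with GDNF. The labels name a second class, LG, with the same treatments, and spell out neither class name, and they give neither the dose of GDNF nor the number of animals behind a pool.

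GDNF is a secreted ligand that binds the co-receptor GFRA1 and, through it, activates the receptor kinase RET, which signals by adaptor proteins such as GRB2 to the RAS-MAP kinase and PI3-kinase-AKT pathways. NCAM1 serves as another receptor for GDNF bound to GFRA1. A fully grown oocyte makes little new RNA while it resumes meiosis, and its stored messages are polyadenylated, translated and degraded in an ordered way. Priming at the poly(A) tail measures the polyadenylated messages. In pools of whole oocytes, less RNA per cell and fewer cells cannot be told apart. The deposited ratios were centred on each array, so a shift shared by all genes would not show in them.

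There were 3 slides, and every group had 1 array on each. Slide 1 holds SM control 1 and SM GDNF 1, with the sample in Cy5. Slide 2 holds SM control 2 and SM GDNF 3, and slide 3 holds SM control 3 and SM GDNF 2, all with the sample in Cy3. Values are the deposited log ratios, taken as log2, for 11913 genes named through 18121 of 45220 features. The channel in the numerator is not given in the sources used here. "Higher" below therefore means a higher deposited ratio on the GDNF arrays and is no direction of expression. Differences are given with their value on slides 2 and 3, which share a dye orientation, and their value in the opposite reading, in which the ratios of slide 1 are turned in sign. In both of these the sign holds only relative to slides 2 and 3. Ratios against a reference of oocytes give no level, so the label oocyte could not be checked against markers. With so few arrays the differences were imprecise. Their median standard error was 0.196, larger than their median size, 0.127. Nothing in the labels says that the pools came from separate animals. Standard errors and p-values measure only the spread between pools in a fit of all 12 arrays, so the LG pools enter them too. In a fit of the 6 SM arrays alone, with 2 residual degrees of freedom, 190 genes had an unadjusted limma p under 0.05.

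In the fit by limma, with the slide as a block, 279 genes (2.34% of 11913) had an unadjusted p under 0.05, of which 139 (1.17%) were higher and 140 (1.18%) lower on the GDNF arrays. A threshold of 0.05 passes 596 genes on average where no gene differs. The count was 473 without SM control 2 and 689 without SM GDNF 3, the arrays of slide 2. On slides 2 and 3 alone the number was 140 (1.18%), and in the opposite dye reading 250 (2.1%). The numbers of genes with a p of 0 to 0.1 were 707 as deposited, 434 on slides 2 and 3 alone and 624 in the opposite reading, and those with a p of 0.9 to 1 were 1423, 1626 and 1396. In all 3 readings small p-values were thus fewer than large ones.

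**Figure D1:**
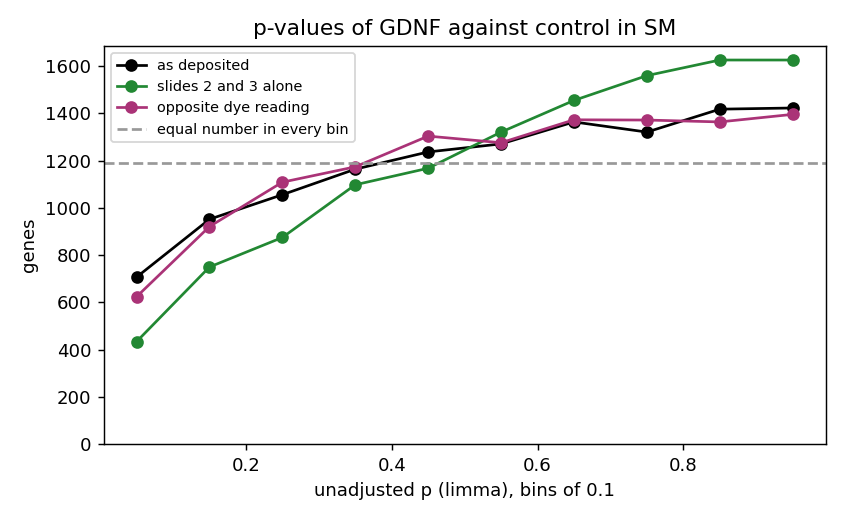
Number of genes (vertical axis) in each bin of 0.1 of the unadjusted limma p (horizontal axis) for GDNF against control in SM oocytes, as deposited, on slides 2 and 3 alone and in the opposite dye reading. All 3 lines climb from left to right, with 707, 434 and 624 genes in the first bin and 1423, 1626 and 1396 in the last, and the dashed line marks an equal number in every bin.

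The within-slide differences, GDNF minus control, had similar spreads across genes, with SDs of 0.45, 0.44 and 0.43 on slides 1, 2 and 3. They did not run the same way. Across genes, which are not independent replicates and share the slide's hybridisation, the difference of slide 2 correlated at -0.458 with that of slide 3, although both carry the sample in Cy3, and at -0.350 with that of slide 1. Slides 1 and 3 correlated at 0.354. These values depend on pairing the arrays by slide. Paired by pool number, the differences correlated at -0.165 for pools 1 and 2, 0.155 for pools 1 and 3 and -0.059 for pools 2 and 3. The SDs were then 0.33 for pool 2 and 0.34 for pool 3. The difference lay on the same side on all 3 slides for 2219 genes (18.6%), 1047 higher and 1172 lower, and on slides 2 and 3 for 4419 genes (37.1%). The 3 GDNF values and the 3 control values did not overlap for 852 genes (7.15%), 421 (3.53%) with GDNF higher and 431 (3.62%) with GDNF lower. Without slide 2, a fit added after the values had been seen, 659 genes had an unadjusted p under 0.05 as deposited and 178 in the opposite reading, and again none had an adjusted p under 0.05.

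**Figure D2:**
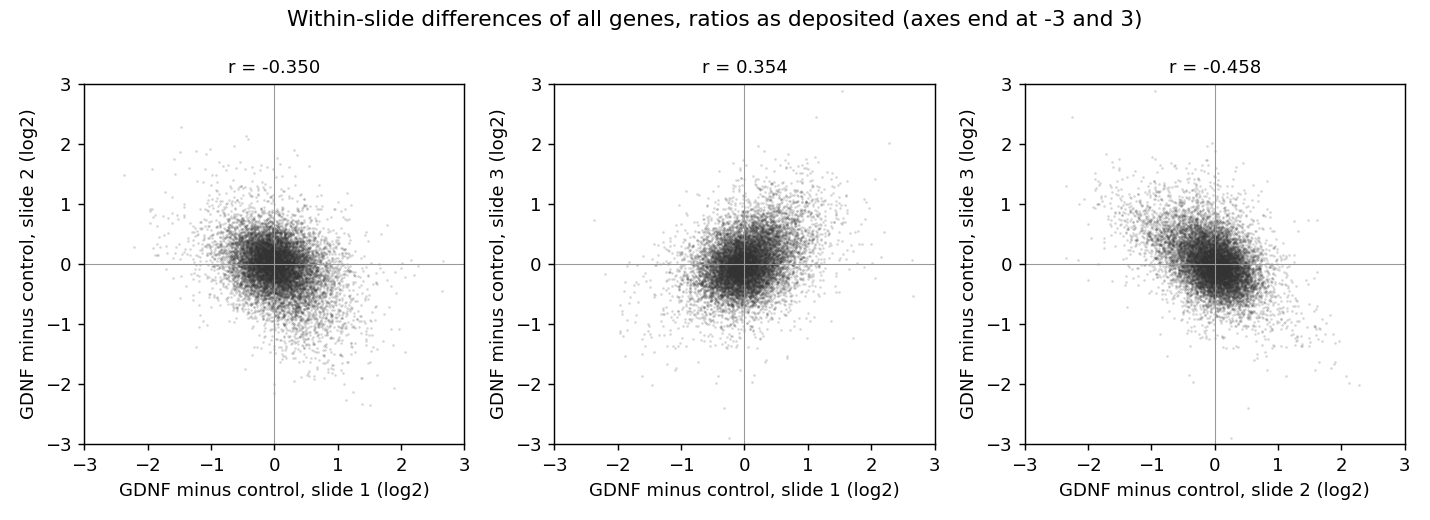
Each point is a gene, placed by its GDNF minus control difference (log2 of the deposited ratio) on one slide against that on another. The cloud tilts down for slides 1 and 2 (r = -0.350) and for slides 2 and 3 (r = -0.458) and up for slides 1 and 3 (r = 0.354); axes end at -3 and 3, and points beyond are not drawn.

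The 25 named genes with the smallest p in the ratios as deposited had sizes of difference from 0.47 to 1.06, standard errors from 0.13 to 0.28 and unadjusted p-values from 0.000341 to 0.00913. Of these, 9 were higher and 16 lower on the GDNF arrays. In all 25 the groups did not overlap and the 3 slides lay on the same side, and leaving out any 1 SM array turned none of them. The choice by p favours each of these. Each had 1 feature except CD5, a receptor on lymphocytes, whose 2 features differed by -0.86 and -0.07. On slides 2 and 3 alone their sizes were 0.41 to 1.01, with 16 of 25 at an unadjusted p under 0.05. In the opposite reading they fell between 0.01 and 0.40, none had an unadjusted p under 0.05, and 4 turned sign: AMBRA1, LRRC27, TMEM139 and POLI.

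CCDC80, a secreted protein of the extracellular matrix, had ratios of 0.52, 0.73 and 0.37 on the control arrays of slides 1, 2 and 3 and of -0.65, -0.13 and -0.79 on the GDNF arrays of the same slides. Each GDNF array thus lay below 0 and each control above it, and the groups were well apart. The difference was -1.06 ± 0.19 (SE; 95% interval -1.50 to -0.63; unadjusted p = 0.000341, limma adjusted p = 1.00), -1.01 on slides 2 and 3 and -0.28 with slide 1 turned. Sarcalumenin (SRL), a calcium-binding protein of the sarcoplasmic reticulum, followed the same pattern with ratios of 0.70, 0.28 and 0.36 on the controls and -0.33, -0.22 and -0.48 on the GDNF arrays, a difference of -0.79 ± 0.15 (SE). LRRC40, a leucine-rich repeat protein, lay on the other side, at -0.28, -0.13 and -0.24 on the controls and 0.78, 0.48 and 1.07 on the GDNF arrays, a difference of 0.99 ± 0.18 (SE). For both, slides 2 and 3 gave nearly the same size, -0.67 for SRL and 0.96 for LRRC40, and the opposite reading left -0.10 and 0.28.

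**Figure D3:**
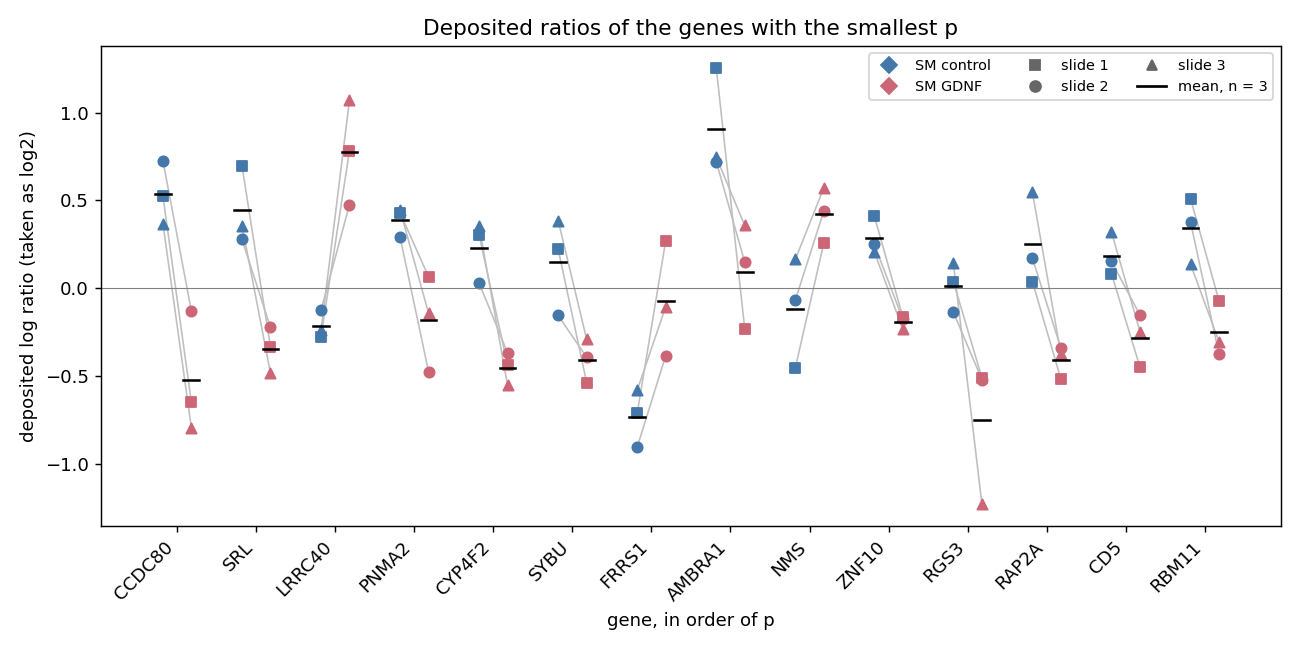
Deposited log ratios (vertical axis, taken as log2) of the 14 named genes with the smallest p, on each of the 3 SM control arrays (blue) and 3 SM GDNF arrays (red), with the shape giving the slide, grey lines joining the arrays of a slide and black bars the means. In each of the 14 genes the red points lie all above or all below the blue ones, for CCDC80 from -0.79 to -0.13 against 0.37 to 0.73, and the step differs between slides, as for AMBRA1.

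The 25 genes are grouped by function here and below only to order the text, and no grouping was tested. Several of these genes act in signal transduction. RGS3, which speeds the hydrolysis of GTP by G-protein alpha subunits, had ratios of 0.04, -0.14 and 0.14 on the controls and -0.51, -0.52 and -1.23 on the GDNF arrays, so that the GDNF array of slide 3 stood well below the other GDNF arrays. Its difference was -0.77 ± 0.21 (SE), -0.88 on slides 2 and 3 and -0.40 with slide 1 turned, which was the value farthest from 0 among the 25 genes. RAP2A, a small GTPase of the RAS family, lay at 0.04, 0.17 and 0.54 on the controls and at -0.52, -0.34 and -0.37 on the GDNF arrays. The 3 GDNF arrays of RAP2A were close together and the controls spread more widely; its difference was -0.66 ± 0.18 (SE), -0.72 on slides 2 and 3 and -0.29 with slide 1 turned. GNAT2, the transducin alpha subunit of cone cells, was at 0.04, 0.47 and 0.32 on the controls and at 0.90, 0.78 and 0.89 on the GDNF arrays. Its difference of 0.58 ± 0.17 (SE) was 0.44 on slides 2 and 3 and 0.01 with slide 1 turned.

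Genes of immune signalling stood on both sides. IL6, the cytokine interleukin 6, had ratios of 0.55, 1.06 and 0.51 on the controls and 0.13, 0.26 and 0.22 on the GDNF arrays. Its GDNF arrays were close together while 1 control, that of slide 2, lay far above the others, and the difference was -0.50 ± 0.15 (SE; unadjusted p = 0.00860), -0.54 on slides 2 and 3 and -0.22 with slide 1 turned. IL20RB, a receptor chain for cytokines of the interleukin 20 family, lay at -0.19, 0.06 and -0.09 on the controls and at -0.65, -0.68 and -0.72 on the GDNF arrays. It was the tightest of these genes on the GDNF side, with a difference of -0.62 ± 0.18 (SE), -0.69 on slides 2 and 3 and -0.31 with slide 1 turned. NOD1, an intracellular sensor of bacterial peptidoglycan, was higher on the GDNF arrays, at 0.70, 0.50 and 0.84 against -0.41, 0.25 and -0.24. Its difference was 0.82 ± 0.24 (SE), 0.67 on slides 2 and 3 and 0.07 with slide 1 turned. CD5 differed by -0.47 ± 0.13 (SE), on the average of its 2 discordant features, and by -0.44 on slides 2 and 3 and -0.11 with slide 1 turned.

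Neural and neuroendocrine genes were also among them. PHOX2A, a homeodomain transcription factor of noradrenergic neurons, had ratios of -0.61, -0.46 and -0.32 on the controls and -1.002, -1.28 and -0.76 on the GDNF arrays. All 6 ratios lay below 0, those of the GDNF arrays further, and the difference was -0.55 ± 0.16 (SE), -0.63 on slides 2 and 3 and -0.29 with slide 1 turned. Neuromedin S (NMS), a hypothalamic neuropeptide, lay at -0.45, -0.07 and 0.16 on the controls and 0.26, 0.44 and 0.57 on the GDNF arrays, a difference of 0.54 ± 0.14 (SE), 0.46 on slides 2 and 3 and 0.07 with slide 1 turned. Syntabulin (SYBU), which links cargo to the motor kinesin-1, differed by -0.56 ± 0.14 (SE), -0.46 on slides 2 and 3 and -0.05 with slide 1 turned. PNMA2, a member of the paraneoplastic Ma antigen family, differed by -0.57 ± 0.14 (SE), -0.68 on slides 2 and 3 and -0.33 with slide 1 turned.

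Of genes of the nucleus and of DNA, POLI, a DNA polymerase that copies past lesions, had ratios of -0.15, 0.34 and -0.40 on the controls and 1.08, 0.49 and 0.65 on the GDNF arrays. Slide 2 had by far the smallest step, and the difference of 0.81 ± 0.25 (SE) became 0.60 on slides 2 and 3 and -0.01 with slide 1 turned. ZNF10, a KRAB zinc-finger repressor, was evenly spaced, at 0.41, 0.25 and 0.21 on the controls and -0.16, -0.18 and -0.23 on the GDNF arrays. RBM11, an RNA-binding protein that regulates splicing, lay at 0.51, 0.38 and 0.14 on the controls and at -0.07, -0.38 and -0.30 on the GDNF arrays. The differences of ZNF10 and RBM11 were -0.48 ± 0.13 (SE) and -0.59 ± 0.17 (SE), without overlap of the groups. ZNF10 had -0.43 on slides 2 and 3 and -0.10 with slide 1 turned, and RBM11 -0.60 and -0.20. MORC4 differed by -0.62 ± 0.19 (SE), -0.70 on slides 2 and 3 and -0.31 with slide 1 turned, and BEND6 by 0.67 ± 0.20 (SE), 0.77 on slides 2 and 3 and 0.36 with slide 1 turned.

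Genes of membranes, metabolism and protein turnover complete the group. AMBRA1, a regulator of autophagy through Beclin 1, had ratios of 1.26, 0.72 and 0.75 on the controls and -0.23, 0.15 and 0.36 on the GDNF arrays. Its largest step was on slide 1 and its smallest on slide 3, and the difference of -0.82 ± 0.21 (SE) became -0.48 on slides 2 and 3 and turned to 0.18 with slide 1 turned. LRRC27 had a difference of -0.97 ± 0.28 (SE), -0.71 on slides 2 and 3 and 0.02 with slide 1 turned. TMEM139 differed by 0.63 ± 0.19 (SE), 0.41 on slides 2 and 3 and -0.09 with slide 1 turned. UBL3, a ubiquitin-like protein anchored to membranes, lay at -0.10, 0.08 and 0.01 on the controls and at 1.02, 0.99 and 0.56 on the GDNF arrays, a difference of 0.86 ± 0.26 (SE), 0.73 on slides 2 and 3 and 0.11 with slide 1 turned. FRRS1, a ferric-chelate reductase, differed by 0.66 ± 0.17 (SE), and CYP4F2, which hydroxylates long-chain fatty acids and vitamin K, by -0.68 ± 0.17 (SE). FRRS1 had 0.50 on slides 2 and 3 and 0.01 with slide 1 turned, and CYP4F2 -0.65 and -0.19.

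Because the dye reading is not settled, the 15 genes whose p was smallest when the larger of the p-values of both readings was taken were also examined. This choice takes genes with a small step on slide 1, which weighs least when that slide is turned. Their sizes were 0.37 to 0.84 as deposited, 0.57 to 1.13 on slides 2 and 3 alone and 0.38 to 0.76 in the opposite reading, none turned sign, and 9 were higher and 6 lower. The groups did not overlap for 6 of the 15. Just 4 of 11913 genes had an unadjusted p under 0.05 in both readings: SLC15A2, CDH10, WIPI1 and B4GALT4. Their differences on slide 1 were -0.02, -0.04, -0.09 and -0.08, so both readings rest on slides 2 and 3. For SLC15A2 and B4GALT4, slide 1 as deposited lay on the other side from slides 2 and 3.

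SLC15A2, the proton-coupled peptide transporter PEPT2, had ratios of -0.30, -0.50 and -1.26 on the controls and -0.32, 0.18 and -0.12 on the GDNF arrays. On slide 1 the 2 arrays differed little, while on slides 2 and 3 GDNF lay clearly above its control, and the groups overlapped through slide 1. The difference was 0.60 ± 0.24 (SE; unadjusted p = 0.0354) as deposited, 0.91 on slides 2 and 3 and 0.62 with slide 1 turned (unadjusted p = 0.0320). CDH10, a type II cadherin of cell adhesion, lay at 0.18, 0.35 and 0.88 on the controls and at 0.14, -0.17 and -0.06 on the GDNF arrays, without overlap; its difference was -0.50 ± 0.19 (SE) as deposited, -0.73 on slides 2 and 3 and -0.47 with slide 1 turned. WIPI1, a phosphoinositide-binding protein of the forming autophagosome, had ratios of -0.04, -0.07 and 0.26 on the controls and -0.13, -0.50 and -0.89 on the GDNF arrays. Its groups did not overlap either, with a difference of -0.56 ± 0.20 (SE) as deposited, -0.80 on slides 2 and 3 and -0.50 with slide 1 turned. B4GALT4, a galactosyltransferase of glycan synthesis, differed by 0.37 ± 0.16 (SE), 0.59 on slides 2 and 3 and 0.42 with slide 1 turned, on the average of 2 features, one of which showed 0.74 and the other no difference to 2 decimals.

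The other genes of this set included several that handle RNA. STAU2, a double-stranded RNA-binding protein that moves and localises messages, had ratios of -0.38, -0.77 and -0.65 on the controls and -0.07, 0.05 and 0.73 on the GDNF arrays. All GDNF arrays lay above all controls, and the difference of 0.84 ± 0.26 (SE; unadjusted p = 0.0101) was 1.10 on slides 2 and 3 and 0.63 with slide 1 turned. SART1, a component of the splicing tri-snRNP, lay at -0.77, 1.24 and 0.41 on the controls and -0.77, -0.76 and 0.14 on the GDNF arrays. Its slide 1 arrays were equal and its controls far apart, so that a difference of -0.76 came with an SE of 0.37 and groups that overlapped; it was -1.13 on slides 2 and 3 and -0.76 with slide 1 turned. LUC7L, associated with the U1 snRNP, differed by 0.40 ± 0.20 (SE) as deposited, by 0.69 on slides 2 and 3, and by 0.52 in the opposite reading, where its unadjusted p was 0.0120.

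Of the rest, SAP130, a subunit of the SIN3 histone deacetylase complex, lay at -0.18, -0.56 and -0.39 on the controls and -0.15, 0.14 and 0.21 on the GDNF arrays, apart by a narrow gap at slide 1. Its difference was 0.45 ± 0.21 (SE), 0.65 on slides 2 and 3 and 0.42 with slide 1 turned. RAB25, a small GTPase of recycling endosomes in epithelia, lay at -0.32, -0.53 and -1.20 on the controls and at -0.27, -0.06 and -0.11 on the GDNF arrays, also without overlap, with a difference of 0.53 ± 0.23 (SE), 0.78 on slides 2 and 3 and 0.50 with slide 1 turned. NAPB, a SNAP protein that takes apart SNARE complexes after membrane fusion, differed by -0.51 ± 0.22 (SE), and ZBTB38, a zinc-finger protein that binds methylated DNA, by -0.37 ± 0.17 (SE). The hormone genes LHB, the beta subunit of luteinizing hormone, and GALP, galanin-like peptide, differed by -0.43 ± 0.17 (SE) and 0.46 ± 0.22 (SE). The groups of LHB, GALP, NAPB and ZBTB38 overlapped. Slides 2 and 3 gave -0.71 for NAPB, -0.56 for ZBTB38, -0.61 for LHB and 0.70 for GALP, and the opposite reading -0.44, -0.38, -0.38 and 0.48. CMPK2, a mitochondrial nucleotide kinase, and KCTD18 differed by 0.47 each as deposited, by 0.71 and 0.67 on slides 2 and 3, and by 0.48 and 0.42 in the opposite reading.

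**Figure D4:**
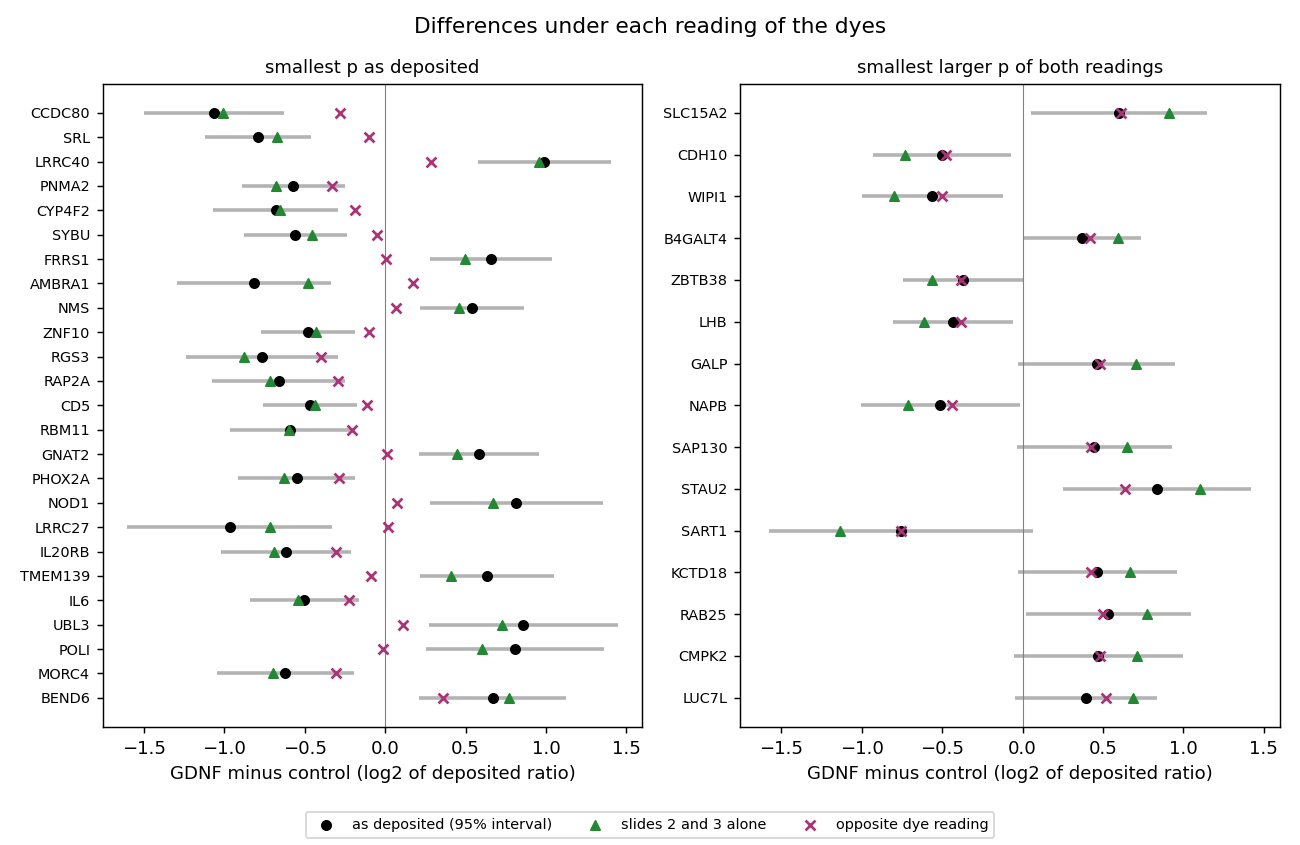
GDNF minus control (log2 of the deposited ratio, horizontal axis) as deposited with its 95% interval (black, grey bar), on slides 2 and 3 alone (green triangles) and in the opposite dye reading (crosses). On the left are the 25 genes with the smallest p as deposited, whose crosses lie between 0.01 and 0.40 in size. On the right are the 15 genes with the smallest larger p of both readings. Most of their black points and crosses lie close together, which their choice favours. Gaps are wider for STAU2 (0.84 as deposited and 0.63 in the opposite reading) and LUC7L (0.40 and 0.52).

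On slides 2 and 3 alone, the 8 named genes with the smallest p had unadjusted p-values of 0.00856 to 0.0121 with 3 residual degrees of freedom, and they included CCDC80, LRRC40, RAP2A and STAU2. The other 4 were the mitochondrial glycerol-3-phosphate dehydrogenase GPD2, the NF-kappa-B inhibitor-interacting NKIRAS2, BTBD9 and the filamin-interacting FILIP1. GPD2 had ratios of -0.53 and 0.06 on the controls of slides 2 and 3 and of 0.41 and 0.62 on the GDNF arrays there. On slide 1 its order was the reverse, 0.15 on the control and -0.46 on the GDNF array, so that 0.29 as deposited compares with 0.75 on slides 2 and 3 and 0.70 with slide 1 turned (unadjusted p = 0.000525). NKIRAS2 likewise lay lower with GDNF on slides 2 and 3, at -0.64 and -0.80 against 0.12 and 0.74, and higher on slide 1, at 0.32 against -0.35. BTBD9 differed by 0.67 on slides 2 and 3 and 0.62 with slide 1 turned, and FILIP1 by -0.65 and -0.54.

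The opposite reading brought forward genes in which slide 1 ran against the 2 other slides. Its 8 named genes with the smallest p were GPD2, NKIRAS2, BTBD9, GLT6D1, STOML3, STYK1, SHC4 and MRPS31, with unadjusted p-values of 0.000525 to 0.00537. SHC4, an adaptor of receptor tyrosine kinases of the SHC family, had ratios of 1.17, -0.04 and -0.50 on the controls and 0.06, 0.41 and -0.19 on the GDNF arrays. The control of slide 1 stood far above every other array, and the difference went from -0.11 ± 0.30 (SE) as deposited to 0.39 on slides 2 and 3 and 0.63 with slide 1 turned. MRPS31, a protein of the mitochondrial ribosome measured by 3 features, differed by 0.04 ± 0.26 (SE) as deposited, -0.37 on slides 2 and 3 and -0.54 with slide 1 turned. Its features were discordant, at -0.34, 0.24 and -1.40 on slide 2 and -0.62, -0.76 and 0.65 on slide 3. STOML3 and STYK1 had 0.14 and 0.05 as deposited, 0.66 and 0.49 on slides 2 and 3, and 0.74 and 0.60 with slide 1 turned.

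Size alone picked out other genes. The difference exceeded 1 in size for 11 genes, of which 1, CCDC80, had an unadjusted p under 0.05, and it exceeded 0.5 for 351 genes (2.95%). Of the 5 genes with the largest sizes, FAM122B, RAPGEF4 and MSR1 each rested on 1 array that stood apart. FAM122B, at 1.57 ± 1.10 (SE), had a ratio of 4.86 on SM GDNF 1 and between -0.49 and -0.03 on the 5 other arrays. RAPGEF4, an exchange factor for RAP proteins that is activated by cyclic AMP, had 4.23 on SM control 2 and between 0.32 and 0.65 elsewhere. MSR1, a scavenger receptor of macrophages, had 3.58 on SM control 3 and at most 0.42 on any other SM array. The difference was -1.26 ± 0.70 (SE) for RAPGEF4 and -1.20 ± 0.68 (SE) for MSR1. On slides 2 and 3 the differences were -0.31 for FAM122B, -1.97 for RAPGEF4 and -1.83 for MSR1, and in the opposite reading -1.99, -1.36 and -1.23. Without the array concerned, the difference became -0.31 for FAM122B, -0.05 for RAPGEF4 and -0.03 for MSR1. WDHD1, a protein of DNA replication, and TIMM9, a chaperone of mitochondrial import, were spread over both groups, from -0.68 to 2.33 and from -0.60 to 2.57. TIMM9 was high on SM control 2 (2.57) as well as on the GDNF arrays (1.63 to 2.27). WDHD1 differed by 1.42 ± 0.77 (SE), 0.99 on slides 2 and 3 and -0.10 with slide 1 turned, and TIMM9 by 1.16 ± 0.69 (SE), 0.97 on slides 2 and 3 and 0.13 with slide 1 turned.

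The ligand, its receptors and the first steps of RET signalling were looked at as the genes nearest to the treatment. Of the 12 measured genes of the GDNF family and its receptors, none had an unadjusted p under 0.05, none had groups that did not overlap, and the median difference was 0.05, beside -0.002 over all genes. GDNF itself had ratios of 0.05, -0.34 and -0.98 on the controls and -0.58, -0.61 and -0.65 on the GDNF arrays, a range that the controls enclosed; the difference was -0.19 ± 0.20 (SE), 0.03 on slides 2 and 3 and 0.23 with slide 1 turned. GFRA1 lay at -0.03, -0.34 and -0.33 on the controls and -0.02, -0.12 and 0.15 on the GDNF arrays. In GFRA1 GDNF was above its control on each slide but the groups overlapped, and the difference was 0.24 ± 0.18 (SE; 95% interval -0.17 to 0.64), 0.35 on slides 2 and 3 and 0.23 with slide 1 turned.

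RET was at -0.40, -0.18 and -0.18 on the controls and 0.02, 0.05 and -0.26 on the GDNF arrays, with GDNF above its control on slides 1 and 2 and below it on slide 3. Its difference of 0.19 ± 0.22 (SE; 95% interval -0.31 to 0.69) became 0.07 on slides 2 and 3 and -0.09 with slide 1 turned. NCAM1 ranged from -0.03 to 0.88 on the controls and from 0.14 to 1.29 on the GDNF arrays, a difference of 0.26 ± 0.51 (SE), 0.30 on slides 2 and 3 and 0.15 with slide 1 turned. GAS1, a membrane protein related to the GFRA co-receptors, differed by 0.31 ± 0.29 (SE), -0.14 on slides 2 and 3 and -0.50 with slide 1 turned, and GFRA4, the co-receptor of persephin, by -0.20 ± 0.22 (SE), -0.29 on slides 2 and 3 and -0.18 with slide 1 turned. The intervals of these genes include both 0 and differences larger than the median of all genes. These arrays therefore neither show nor exclude a change of that size.

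Among 40 measured adaptors and kinases of RET signalling, 1 had an unadjusted p under 0.05, 3 had groups apart with GDNF higher and none with GDNF lower, and the median was -0.01. These are shares of 2.5% and 7.5%, near the 2.34% and 7.15% of all genes. The counts of the other lists are to be read against the same background. GRB2, the adaptor that recruits the RAS exchange factor SOS, had ratios of -0.22, -0.12 and -0.25 on the controls and -0.12, 0.41 and 0.36 on the GDNF arrays. The groups met at slide 1's GDNF array and the control of slide 2, which differed in the fourth decimal, and the difference was 0.41 ± 0.17 (SE; unadjusted p = 0.0355, limma adjusted p = 1.00), 0.57 on slides 2 and 3 and 0.35 with slide 1 turned, where its unadjusted p was 0.426. BRAF, a kinase that activates MEK, lay at -0.17, 0.47 and 0.30 on the controls and 0.81, 0.76 and 0.60 on the GDNF arrays, without overlap. Its difference of 0.52 ± 0.26 (SE) became 0.30 on slides 2 and 3 and -0.13 with slide 1 turned. PIK3CD, a catalytic subunit of PI3-kinase, differed by 0.52 ± 0.34 (SE), 0.51 on slides 2 and 3 and 0.15 with slide 1 turned, and DOK5, a docking protein that binds RET, by -0.38 ± 0.22 (SE), -0.25 on slides 2 and 3 and 0.05 with slide 1 turned.

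Of 29 early response and feedback genes of receptor kinases, 1 had an unadjusted p under 0.05 and the median was -0.01. That gene was DUSP10, a phosphatase of the MAP kinases p38 and JNK, at 0.57, 0.67 and 0.65 on the controls and -0.11, 0.39 and 0.31 on the GDNF arrays. The controls were close together and all above the GDNF arrays, of which that of slide 1 was lowest. The difference was -0.44 ± 0.19 (SE; unadjusted p = 0.0446), -0.32 on slides 2 and 3 and 0.02 with slide 1 turned. EGR2, an immediate-early zinc-finger factor, differed by 0.38 ± 0.19 (SE) as deposited, by 0.61 on slides 2 and 3 and by 0.43 with slide 1 turned (unadjusted p = 0.0361). KLF4 differed by -0.33 ± 0.20 (SE) and PHLDA1 by 0.20 ± 0.14 (SE), with overlapping groups. KLF4 had -0.29 on slides 2 and 3 and -0.05 with slide 1 turned, and PHLDA1 0.18 and 0.03. None of the 7 measured neurotrophins and receptors had an unadjusted p under 0.05, and in NTRK2, the BDNF receptor, whose difference was -0.33 ± 0.16 (SE), -0.21 on slides 2 and 3 and 0.04 with slide 1 turned, the groups overlapped.

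The median difference of genes of the oocyte itself changed side between slides. Of 30 oocyte and maternal-effect genes, 1 had an unadjusted p under 0.05 as deposited and 1 in the opposite reading, and the median differences on slides 1, 2 and 3 were 0.29, -0.27 and 0.21. GDF9, a growth factor that oocytes secrete onto cumulus cells, had ratios of 0.38, 1.53 and -0.34 on the controls and 1.87, 1.01 and 0.77 on the GDNF arrays, higher with GDNF on slides 1 and 3 and lower on slide 2. Its difference was 0.69 ± 0.73 (SE), 0.30 on slides 2 and 3 and -0.30 with slide 1 turned. BMP15, the partner of GDF9, lay at -0.83, -0.28 and -0.39 on the controls and 0.41, -0.85 and -0.67 on the GDNF arrays. Slide 1 ran against the other slides, and 0.13 ± 0.46 (SE) as deposited became -0.42 on slides 2 and 3 and -0.69 with slide 1 turned (unadjusted p = 0.0360).

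ZP3, a protein of the zona pellucida, had ratios of -0.53, 0.57 and -0.44 on the controls and 0.32, 1.15 and 0.31 on the GDNF arrays. GDNF was above its control on every slide, yet the groups overlapped, since the arrays of slide 2 were both higher than the rest. The difference was 0.72 ± 0.31 (SE; unadjusted p = 0.0417), 0.66 on slides 2 and 3 and 0.16 with slide 1 turned. ZAR1, a maternal RNA-binding protein needed at the start of development, differed by 0.31 ± 0.62 (SE), 0.26 on slides 2 and 3 and 0.04 with slide 1 turned. FIGLA, a transcription factor of zona genes, differed by 0.51 ± 0.35 (SE), BNC1 by -0.31 ± 0.16 (SE) and TET3, which oxidises methylated cytosine, by -0.30 ± 0.19 (SE), and all 3 had values within 0.05 of 0 in the opposite reading, with 0.35, -0.21 and -0.22 on slides 2 and 3.

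None of 38 meiosis and M-phase genes had an unadjusted p under 0.05, with medians of 0.28, -0.17 and 0.05 on slides 1, 2 and 3. CDK1, the kinase of M-phase entry, had ratios of 0.65, 0.55 and 0.32 on the controls and 1.38, 0.82 and 0.72 on the GDNF arrays, apart by a small gap. Its difference of 0.46 ± 0.29 (SE), the average of 3 features, became 0.33 on slides 2 and 3 and -0.02 with slide 1 turned. KIF11, a spindle kinesin, was at -0.48, -0.47 and -0.47 on the controls and at 0.58, 0.41 and -0.49 on the GDNF arrays, so that slides 1 and 2 showed a step that slide 3 did not. The difference of KIF11 was 0.64 ± 0.38 (SE), 0.43 on slides 2 and 3 and -0.07 with slide 1 turned. CDC25B, the phosphatase that activates CDK1, differed by -0.32 ± 0.25 (SE), and REC8, the meiotic cohesin, by 0.21 ± 0.14 (SE). The groups of CDC25B were apart only by a narrow gap on slide 1, at 0.057 on the control and 0.054 on the GDNF array. CDC25B had -0.48 on slides 2 and 3 and -0.32 with slide 1 turned, and REC8 0.18 and 0.03. Of 15 genes of the cyclic nucleotide control of meiotic arrest, none had an unadjusted p under 0.05 and 11 were lower (6011 of 11913 over all genes), with a median of -0.13 and slide medians of 0.10, -0.37 and -0.01. GPR3, the receptor that keeps cyclic AMP high in the arrested oocyte, differed by -0.34 ± 0.18 (SE), -0.33 on slides 2 and 3 and -0.09 with slide 1 turned.

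Markers of other cells were looked at because the oocytes had been stripped of cumulus. Of 32 cumulus and granulosa markers, 1 had an unadjusted p under 0.05 and the median was -0.02. They were split into 14 higher and 18 lower. The groups did not overlap for 2 (6.25%), both lower, beside 7.15% of all genes. Their median ratio was 0.07, 0.05 and 0.02 on the controls and 0.01, -0.01 and 0.04 on the GDNF arrays, so the arrays differed little. HAS2, which makes the hyaluronan of the expanding cumulus, lay at 0.42, 0.57 and 0.62 on the controls and 0.55, 0.56 and 0.69 on the GDNF arrays. PTX3, a protein of the same matrix, was at 0.27, 0.21 and 0.40 on the controls and at 0.15, 0.02 and 0.02 on the GDNF arrays, apart but with a difference of -0.23 ± 0.13 (SE), -0.28 on slides 2 and 3 and -0.15 with slide 1 turned. VNN2, a pantetheinase, differed by -0.53 ± 0.19 (SE; unadjusted p = 0.0221), -0.51 on slides 2 and 3 and -0.15 with slide 1 turned. Of 21 theca, stroma, blood and endothelial markers none had an unadjusted p under 0.05, and the median was -0.003. Here 10 were higher and 11 lower, and the groups did not overlap for 3 (14.3%, beside 7.15% of all genes), all higher. CD14, a monocyte surface protein, differed by 0.40 ± 0.19 (SE) with groups apart, 0.49 on slides 2 and 3 and 0.26 with slide 1 turned. CD3E differed by 0.23 ± 0.15 (SE), while S100A9 and PECAM1 lay the other way, at -0.19 ± 0.13 (SE) and -0.21 ± 0.14 (SE). Slides 2 and 3 gave 0.37, -0.22 and -0.27 for CD3E, S100A9 and PECAM1, and the opposite reading 0.27, -0.10 and -0.15. The part of other cells in the results was not tested beyond these values.

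The metabolic and housekeeping lists gave few genes. Of 28 genes of lipid and sterol metabolism, 1 had an unadjusted p under 0.05: PPARG, a nuclear receptor that drives fat storage, at 0.31, 0.36 and 0.35 on the controls and 0.98, 0.74 and 0.55 on the GDNF arrays. The controls were nearly equal and all GDNF arrays higher, but its 2 features differed in where the step fell, the first showing 0.71 on slide 2 and 0.004 on slide 3 and the second 0.05 and 0.40. The difference was 0.42 ± 0.17 (SE; unadjusted p = 0.0395), 0.29 on slides 2 and 3 and -0.03 with slide 1 turned. Of 51 genes of oxidative phosphorylation, 1 had an unadjusted p under 0.05, and it was also the 1 of 28 apoptosis genes: CYCS, cytochrome c, which carries electrons in the respiratory chain and activates caspases when released. CYCS had ratios of -0.57, 0.53 and -0.18 on the controls and 1.22, 1.17 and 0.36 on the GDNF arrays, higher with GDNF on every slide but overlapping, with a difference of 0.99 ± 0.33 (SE; unadjusted p = 0.0145), 0.59 on slides 2 and 3 and -0.20 with slide 1 turned. NDUFA8, a subunit of complex I with 3 features, differed by 0.65 ± 0.30 (SE), 0.64 on slides 2 and 3 and 0.20 with slide 1 turned, and each of its features was higher with GDNF on each slide.

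Of 52 cytosolic ribosomal protein genes, none had an unadjusted p under 0.05, while 40 were lower and the median was -0.13. Over all genes 6011 of 11913 were lower. That median came from slides 1 and 3, at -0.29 and -0.13, while slide 2 had 0.004. On slides 2 and 3 together it was -0.01, and in the opposite reading 0.07. The ribosomal genes also differed between arrays of 1 group, with median ratios of 0.10, 0.49 and 0.34 on the controls and -0.19, 0.56 and 0.28 on the GDNF arrays, so that the groups overlapped. RPL28 differed by -0.37 ± 0.24 (SE) as deposited, -0.12 on slides 2 and 3 and 0.21 with slide 1 turned. No gene of the 34 for polyadenylation and decay of maternal messages, the 28 of TGF-beta, BMP and SMAD signalling, the 24 of redox defence or the 36 proteasome subunits had an unadjusted p under 0.05, and their medians were 0.03, -0.05, -0.02 and 0.03.

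**Figure D5:**
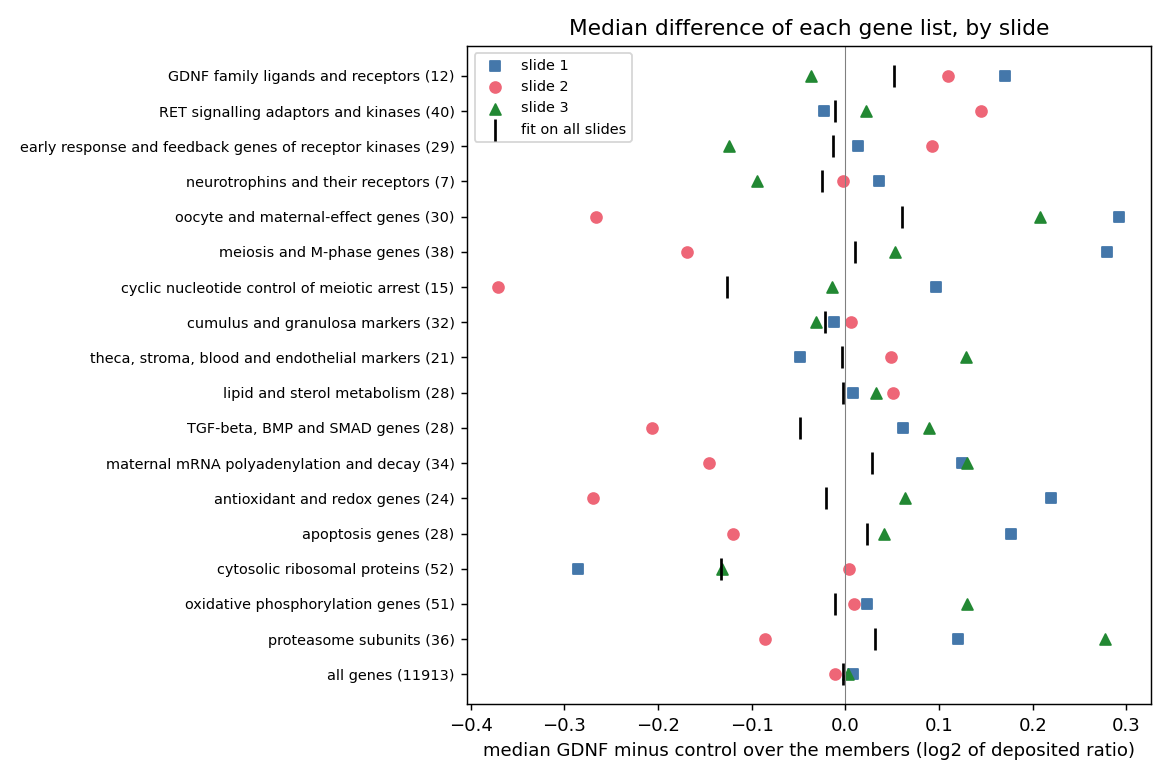
Median GDNF minus control difference (log2 of the deposited ratio) over the measured members of each gene list, with their number in brackets, on slides 1 (square), 2 (circle) and 3 (triangle) and in the fit on all slides (bar). Slide 2 lies apart from slides 1 and 3 for oocyte genes (-0.27 against 0.29 and 0.21) and meiosis genes (-0.17 against 0.28 and 0.05), and the ribosomal list lies low on slide 1 (-0.29).

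The difference between GDNF and control arrays in SM oocytes was set against that in LG oocytes by the interaction term of the same fit. No gene passed an adjusted p of 0.05 and 499 (4.19%) had an unadjusted p under 0.05, with 596 passing on average where no gene differs. Of the 25 genes with the smallest p in SM, 11 lay on the same side in LG, where their sizes were 0.002 to 0.70, and 18 had an unadjusted interaction p under 0.05, which their choice by a difference in SM favours. The smallest adjusted p of their interactions was 0.991. UBL3 differed by 0.86 in SM and -0.70 in LG, and GNAT2 by 0.58 and 0.41. GRB2 differed by 0.41 in SM and -1.26 in LG, and its interaction had the smallest p of all genes as deposited (unadjusted p = 5.3e-05, limma adjusted p = 0.635). Its unadjusted interaction p was 0.140 in the opposite dye reading and 0.000407 on slides 2 and 3 alone. The LG differences rest in part on LG control 2, an array of slide 3 with far more widely spread ratios (SD 0.871) than the others. None of these differences is therefore shown to be particular to SM oocytes.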

How the data were processed

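The authors deposited 1 log ratio per feature and array, per the labels from 2-colour hybridisations of a sample against an oocyte reference, and these were treated as log2 values. Which log base, numerator channel and normalization the authors used is not given in the sources used here. Spot intensities, backgrounds and flags were not used here, so dim spots could not be set aside. Array medians lay between -0.0106 and 0.0215 and the median absolute ratio was 0.267 on all 12 arrays, so the deposited values had been centred and scaled alike. The tails were not alike. LG control 2, on slide 3, had an SD of 0.871 and 489 features with a ratio above 4. The other arrays had SDs of 0.454 to 0.547 and 0 to 9 such features. LG control 2 was kept, and it enters the residual spread of the fit. Features were named through the platform annotation with symbols updated from RefSeq (accession, current symbol or unique synonym), and 27099 had no symbol. Averaging the features of each symbol left 11913 genes, and 3326 genes had several features.

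The test was limma (version 3.58.1, under R 4.3.3), fitting a linear model of the 4 groups and the slide on all 12 arrays, with 6 residual degrees of freedom, empirical Bayes moderation and Benjamini-Hochberg adjustment over all genes, two-sided. The script was tested on simulated ratios. Slides 2 and 3 alone, the opposite reading and the further alternatives described in the closing section used the same model. The genes named are, LOC placeholders skipped, the 25 with the smallest p, the 15 with the smallest larger p of both readings, the 8 each with the smallest p on slides 2 and 3 and with slide 1 turned, the 5 with the largest difference, 11 genes set by name, of which GFRA2 was not measured, and up to 4 members of each of 17 gene lists by p. They and the lists were chosen with earlier results of these data known. The series' design text gives 3 biological replicates per array and the labels a number per pool of 2, and neither entered a calculation. No sequences or coordinates are given, since the files name no genome build.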

Additional observations from a re-analysis of the deposited data

How the results depend on the processing

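No gene passed an adjusted p of 0.05 by limma under any of the alternatives run, and the smallest adjusted p in any of them was 0.431. The number of genes with an unadjusted p under 0.05, 279 as deposited, stayed within 1.5 times of that in the opposite dye reading, without a slide block, on the 6 SM arrays alone, after quantile normalization, with the median of features, with robust moderation and in an ordinary linear model. It was 140 on slides 2 and 3 alone and 515 with array weights, and 1085 of 45220 single features passed. Leaving out 1 SM array gave 208 to 689, with the highest numbers, 473 and 689, without the slide 2 arrays SM control 2 and SM GDNF 3. Chosen after seeing the data, the fit without slide 2 gave 659 and its opposite reading 178. The cause was not tested.

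Pool numbers are shared between groups but do not match the slides. Deviations from the group means correlated across genes at 0.0978, 0.295 and 0.403 for pools 1, 2 and 3, and across single features at 0.132, 0.344 and 0.381. A correlation over 0.1 in every pool was the mark for pairing, which was passed over features and missed by pool 1 over genes. SM control 1 and SM GDNF 1 correlated best with each other over features but not over genes. The arrays sharing slide 2 correlated at -0.442 across genes and those sharing slide 3 at -0.097, below the values of pools 2 and 3. On slide 1 the arrays are those of pool 1. Of the ratios themselves, those of SM control 2 and SM GDNF 2 correlated best, at 0.747. The slide block of the main fit thus paired arrays on slides 2 and 3 that deviated in opposite directions. Whether the pool numbers pair the samples remains unsettled. With the pool number as a replicate block in place of the slide, 332 genes had an unadjusted p under 0.05, and on the 6 SM arrays alone 459, and none passed an adjusted p of 0.05.

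Differences that turned sign are as follows. In the opposite reading they became 0.18 for AMBRA1, 0.015 for LRRC27, -0.085 for TMEM139, -0.010 for POLI, 0.63 for SHC4, -0.54 for MRPS31, -1.99 for FAM122B, -0.10 for WDHD1, 0.23 for GDNF, -0.092 for RET, -0.30 for GDF9, -0.69 for BMP15, -0.022 for HAS2, -0.50 for GAS1, -0.13 for BRAF, 0.045 for DOK5, 0.017 for DUSP10, -0.046 for FIGLA, 0.029 for BNC1, 0.0083 for TET3, -0.065 for KIF11, -0.021 for CDK1, -0.030 for PPARG, -0.20 for CYCS, 0.21 for RPL28 and 0.043 for NTRK2. On slides 2 and 3 alone they were 0.39 for SHC4, -0.37 for MRPS31, -0.31 for FAM122B, 0.029 for GDNF, -0.42 for BMP15 and -0.14 for GAS1. Array weights gave -0.074 for STOML3 and -0.13 for STYK1, and the median of features -0.00153 for MRPS31. Leaving out 1 array turned the sign within ranges of -0.13 to 0.51 for STOML3, -0.13 to 0.37 for STYK1, -0.37 to 0.37 for SHC4, -0.35 to 0.25 for MRPS31, -0.31 to 2.68 for FAM122B, -0.45 to 0.0026 for GDNF, -0.18 to 0.73 for NCAM1, -0.46 to 0.47 for BMP15, -0.40 to 0.78 for ZAR1, -0.13 to 0.25 for HAS2, -0.029 to 0.48 for GAS1 and -0.41 to 0.012 for GFRA4.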
